A study of Mus musculus with 16 samples.

Results

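The MHC class II presentation genes were followed in bulk RNA from the mouse terminal ileum, the last stretch of the small intestine. The set was defined by gene symbol and holds 8 genes, H2-Aa, H2-Ab1, H2-Eb1, H2-DMa, H2-DMb1, Cd74, Ciita and Ctss, of the 23299 genes in the deposited table, and all 8 passed the filter on low values. The study asked how the sweet and umami taste receptor subunit TAS1R3 shapes the ileal response to a Western diet (WD). Its C57BL/6 mice, 5 to 6 weeks old when assigned, were wild-type (Tas1r3+/+, WT) or Tas1r3-knockout (Tas1r3-/-, KO; the Tas1r3tm1Csz line, a germline knockout, backcrossed to C57BL/6, with littermate controls). They received normal diet (ND) with plain water or the WD for 10 weeks, the latter being a 60% high-fat diet with a 30% sugar solution to drink. The labels give 16 mice, 4 in each of the groups WT-ND, KO-ND, WT-WD and KO-WD, with 2 males and 2 females in each, but only 13 columns were used. In KO-ND, both female columns equal weighted means of the male columns in all but 17 and 18 of 59258 transcripts and were left out, so that KO-ND is 2 males. In KO-WD, the female columns depend on one another and were averaged into 1 library. The genotype by diet design gives 4 comparisons of 2 groups and their interaction, and the labelled sex gives a further one.

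MHC class II molecules are pairs of an alpha and a beta chain that display peptides from endocytosed proteins to CD4 T cells. H2-Aa and H2-Ab1 encode the chains of I-A, and H2-Eb1 encodes the beta chain of I-E, whose alpha chain gene H2-Ea is defective in C57BL/6 mice. Cd74 encodes the invariant chain, which fills the groove of new class II molecules. Ctss encodes cathepsin S, a protease that trims the invariant chain, and H2-DMa and H2-DMb1 encode chains of the H2-DM exchanger that loads peptide. Ciita encodes the class II transactivator, which does not bind DNA itself but is recruited by factors on the X and Y boxes of class II promoters and is induced by interferon-gamma. In the ileum, class II is carried by dendritic cells, macrophages and B cells, and by epithelial cells exposed to interferon-gamma.

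These boxes can be read in the promoters of the members. The RefSeq promoter table (build GRCm38.p6) holds 5 of the 8 genes, with 2 entries for H2-DMa; H2-Ab1, Cd74 and Ciita were not matched. The 100 bases before the transcription start are shown for H2-Aa, H2-Eb1, H2-DMb1 and Ctss. Pearson's r between the log2 levels of the first 3 was 0.62 to 0.87, and with Ctss it was 0.39 to 0.45. H2-DMa, at r = 0.96 with H2-DMb1, is not shown. Capitals mark every match, on either strand, to the Y box CCAAT, the X box core AGNNACNGA, the CRE half-site TGACG or the interferon-stimulated element core GAAANNGAA. The 2 matches to the CRE half-site in H2-Aa, 1 on each strand, overlap, and no other matches shown do.
H2-Aa (chr17:34287824-34287923, minus strand): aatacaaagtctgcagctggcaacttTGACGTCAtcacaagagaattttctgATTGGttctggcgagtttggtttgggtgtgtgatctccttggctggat
H2-Eb1 (chr17:34305767-34305866, plus strand): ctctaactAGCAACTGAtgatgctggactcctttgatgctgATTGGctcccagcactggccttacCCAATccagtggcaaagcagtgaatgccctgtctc
H2-DMb1 (chr17:34153091-34153190, plus strand): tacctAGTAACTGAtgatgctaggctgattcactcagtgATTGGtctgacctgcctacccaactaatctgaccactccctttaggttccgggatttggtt
Ctss (chr3:95526686-95526785, plus strand): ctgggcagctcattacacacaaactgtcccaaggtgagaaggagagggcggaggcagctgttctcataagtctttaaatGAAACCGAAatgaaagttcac

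A reversed Y box, ATTGG, began 48, 59 and 61 bases before the start in H2-Aa, H2-Eb1 and H2-DMb1, and H2-Eb1 held a further CCAAT 35 bases before it. The X box core lay upstream of it in H2-Eb1 (92 bases before the start) and H2-DMb1 (95 bases), whereas H2-Aa had a CRE half-site 74 bases before the start and its reverse complement, CGTCA, 71 bases before it. The Ctss window held none of these and carried the interferon-stimulated element core 21 bases before the start. Neither entry for H2-DMa held any of the 4 motifs, but both start away from the gene start in GENCODE. The H2-DMb1 entry does so too, at 34153191 against 34153072, so its window lies within the annotated gene. Over the same window, the Y box occurred in 18.9% of 32851 promoters, the X box core in 5.6%, the CRE half-site in 10.5% and the interferon-stimulated element core in 2.53%. A match is a stretch of letters, and binding was not measured.

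The deposited values are RPKM, reads of a transcript relative to its length and to the size of the library. They were summed per gene, and each library was divided by a scaling factor of 0.693 to 1.41. Levels below are these scaled RPKM, and differences are on the log2(scaled RPKM + 0.5) scale. The values imply 7003317 to 12384965 reads per library. At this depth, the members rested on 184 to 543 reads per library for Ciita, 282 to 1195 for H2-DMb1 and 6236 to 29350 for Cd74. ND-fed and WD-fed columns differ in their deposited sums (817011 to 819992 against 542371 to 685274), so that diet and any difference in handling between the diets cannot be told apart. No sequencing batch is given in the labels. Tas1r3 was at an RPKM of 1.8 to 2.95 in WT-ND and 4.21 to 6.27 in WT-WD and at most 0.00452 in KO libraries, as labelled. These KO values lie below the RPKM of 1 read on its transcript of 3523 bases. Of the Tas1r3 values, 3 have more than 6 digits, as do 169 of the 770354 values examined, and the reason was not tested. Xist and Ddx3y matched the labelled sex in all 13 libraries.

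Across the 13 libraries, Cd74 had the highest level, 939 ± 372 (mean ± SD, n = 13), and Ciita the lowest, 6.22 ± 1.81. Between them, in descending order, lay H2-Ab1 (590 ± 219), H2-Aa (423 ± 187), H2-Eb1 (286 ± 84.5), Ctss (64.4 ± 16.8), H2-DMa (54.0 ± 19.2) and H2-DMb1 (43.5 ± 21.9). Within a library this order was the same in all 13 for 5 of the 7 neighbouring pairs. H2-Aa exceeded H2-Eb1 in 12 of 13 libraries and Ctss exceeded H2-DMa in 10 of 13, so that the order of Ctss and H2-DMa does not hold beyond their spread. The order is that of sums over transcripts of all types. With protein-coding transcripts alone, H2-Aa instead lay above H2-Ab1 in every library. Their ratio was 1.15 to 2.02 on the ND and 1.19 to 1.83 on the WD. The ratio of H2-Eb1 to Ctss was then 0.613 to 1.91 and 0.685 to 1.72, so that their order did not hold. These genes lie at chr17:34282744-34287823 (H2-Aa, minus strand), chr17:34257689-34269419 (H2-Ab1), chr17:34305867-34316674 (H2-Eb1), chr17:34119541-34139101 (H2-DMa) and chr17:34153072-34160230 (H2-DMb1), all within the MHC, and on chromosomes 18 (Cd74), 16 (Ciita) and 3 (Ctss) of GRCm38. Reads shared with the near copies H2-DMb2 and H2-Eb2 could be assigned to either gene, so levels of H2-DMb1 and H2-Eb1 carry that uncertainty.

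In the order male 1, male 2, female 1 and female 2, Cd74 was at 607, 594, 1134 and 1615 in WT-ND, at 811 and 1286 in the KO-ND males, at 736, 638, 976 and 1251 in WT-WD, and at 556 and 546 in the KO-WD males and 1457 in the female library. H2-DMb1 was at 28.5, 29.2, 52.5 and 85.1 in WT-ND, at 48.2 and 58.0 in KO-ND, at 23.9, 20.5, 33.9 and 69.7 in WT-WD, and at 24.0, 21.4 and 70.4 in KO-WD. For both genes the females of a group lay above its males, the KO-ND males lay above all other males, and all 4 groups overlapped. H2-Ab1 was at 348, 394, 682 and 983 in WT-ND, at 509 and 700 in KO-ND, at 558, 353, 641 and 817 in WT-WD, and at 416, 361 and 912 in KO-WD. H2-Aa was at 166, 262, 376 and 564 in WT-ND, at 260 and 425 in KO-ND, at 438, 308, 555 and 763 in WT-WD, and at 364, 273 and 746 in KO-WD. Both I-A chain genes had the same order of males and females within the groups.

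Ciita was at 3.70, 4.70, 7.99 and 7.86 in WT-ND, at 6.08 and 9.57 in KO-ND, at 4.62, 5.34, 5.12 and 6.90 in WT-WD, and at 5.83, 4.54 and 8.60 in KO-WD. Its highest level was thus in a male, KO-ND male 2. Ctss was at 61.0, 82.0, 56.2 and 77.9 in WT-ND, at 52.0 and 45.0 in KO-ND, at 73.4, 64.2, 60.2 and 88.9 in WT-WD, and at 38.4, 48.2 and 90.0 in KO-WD. Ctss did not separate the sexes in the WT groups, and its 4 KO males were below every WT library, as they were for 1.46% of all genes. H2-Eb1 ranged from 171 to 415 and H2-DMa from 33.6 to 87.8 over the 13 libraries, with the highest value of each in WT-ND female 2. Over the libraries, Pearson's r between the log2 values of 2 members was 0.59 to 0.97 (median 0.85) in the 21 pairs without Ctss and 0.05 to 0.45 in the 7 pairs with it. These correlations are descriptions over 13 libraries that share scaling.

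**Figure D1:**
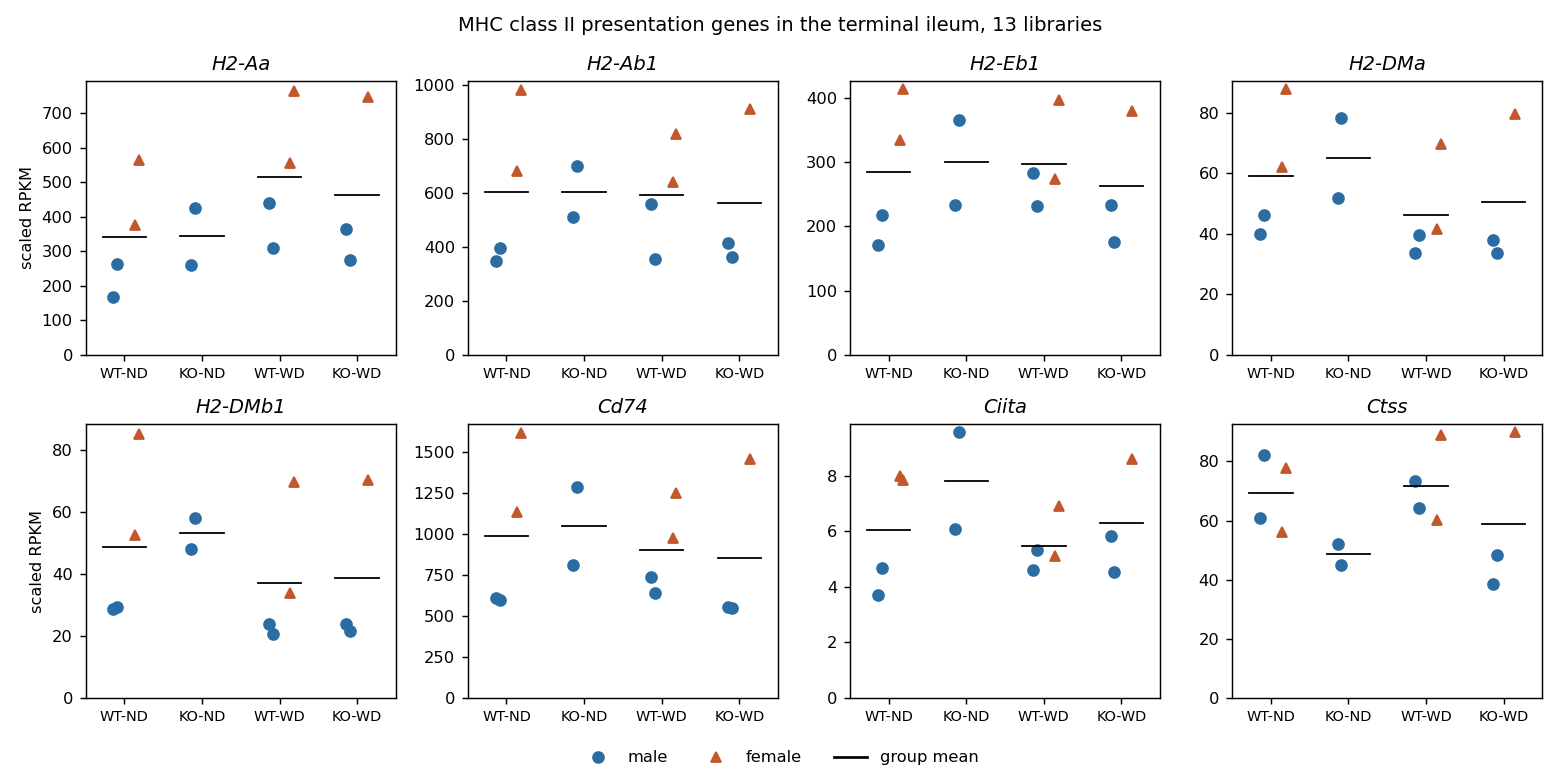
Scaled RPKM (vertical axes, from 0) of the 8 genes in the 13 libraries by group, with circles for males, triangles for females and lines at group means. The groups overlap in most panels, and for Cd74 the female libraries lie between 976 and 1615.

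In mice fed the ND, none of the 8 members differed between KO and WT at an adjusted p under 0.01 with a fold change of at least 2, the rule for a call. In limma with Benjamini-Hochberg adjustment over all 19042 genes tested, 0% were called. None reached an unadjusted p under 0.05 either, against 4.73% of all genes. Cd74 averaged 1049 in KO and 988 in WT, a log2 difference of 0.18 ± 0.51 (SE; 95% interval -0.93 to 1.29; adjusted p = 0.96). Ctss averaged 48.5 in KO and 69.3 in WT, a difference of -0.49 ± 0.30, and its KO libraries lay below all WT ones, as did those of 13.3% of all genes (adjusted p = 0.895, exact permutation p = 0.133, where the smallest p of 4 against 2 libraries is 0.0667). The other 6 members had log2 differences of 0.10 to 0.38, and the median of all 8 was 0.15, beside 0.01 for all genes. Intervals reached 1.52 for H2-DMb1, so that a doubling in KO was within the precision of this comparison.

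That comparison set 2 KO males against 2 males and 2 females of WT. Among males alone, the member median was 0.71, and with sex as a covariate it was 0.62, with no member called in either fit. The 2 KO males were themselves far apart: the median was 0.45 without male 1 and -0.14 without male 2. The summed level of 8 T cell markers was 12.6 and 28.9 in these males, against 7.54 and 10.3 in the WT-ND males. In KO against all WT on the ND, all 8 epithelial markers had a negative difference (median -0.86). Their sums were 3893 to 4020 in KO-ND and 4149 to 7232 in WT-ND. All 6 smooth muscle markers had a positive difference (median 0.655, sums of 1951 to 3788 and 1107 to 3316). No gene of these lists had an unadjusted p under 0.05, and their part in the result was not tested.

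In mice fed the WD, the members also had no call, while 0.0105% of all genes had one, and none had an unadjusted p under 0.05, against 2.65% of all genes. H2-Aa averaged 461 in KO and 516 in WT (-0.22 ± 0.46, 95% interval -1.21 to 0.78, adjusted p = 1). Cd74 averaged 853 and 900 (-0.19 ± 0.45, interval -1.17 to 0.79). Ctss again had the most negative difference, -0.36 ± 0.27, from 58.9 in KO and 71.7 in WT. The median of the members was -0.16, beside -0.01 for all genes, and lay between -0.54 without the KO-WD female library and 0.10 without KO-WD male 2. In the same comparison, all 8 macrophage markers had a negative difference, 3 of them with an unadjusted p under 0.05, with a summed level of 106 to 173 in KO-WD and 130 to 239 in WT-WD. Ctss is abundant in macrophages, and the part of these markers in its level was not tested. All 8 epithelial markers also had a negative difference (median -0.49, 1 with an unadjusted p under 0.05), with sums of 1447 to 5837 in KO-WD and 3733 to 9396 in WT-WD. All 8 T cell markers were negative (median -0.36, sums of 13.4 to 27.6 and 16.9 to 43.3) and all 6 smooth muscle markers positive (median 0.37, sums of 1370 to 5357 and 1023 to 4024), and the part of these lists in the members' values was not tested. In bulk RNA, fewer cells of a type and less RNA per cell cannot be told apart.

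Between the diets in WT mice, again no member was called (0.00525% of all genes were), and none had an unadjusted p under 0.05, which 15.5% of all genes had. H2-Aa averaged 516 on the WD and 342 on the ND, the most positive difference (0.66 ± 0.42, 95% interval -0.26 to 1.58, adjusted p = 0.472). H2-DMb1 averaged 37.0 and 48.8, the most negative one (-0.41 ± 0.47, adjusted p = 0.7). The median over the members was -0.005, beside 0.02 for all genes. It depended on the scaling and was -0.464 with values as deposited. In KO mice, where the ND group is males alone and the WD group holds a female library, 0% of all genes were called and 5.49% had an unadjusted p under 0.05, and no member had either. H2-DMb1 averaged 38.6 on the WD and 53.1 on the ND (-0.67 ± 0.61, interval -1.99 to 0.66), and H2-Aa 461 and 342 (0.34 ± 0.55). The member median was -0.26, but -0.583 in males only, -0.519 with sex as a covariate and -0.655 with values as deposited. In WT, all 8 T cell markers were higher on the WD (median 0.615, 4 at an unadjusted p under 0.05). So were all 6 tested B cell (0.509) and 7 of 8 macrophage markers (0.234), while 7 of 8 epithelial markers were lower (-0.403). In KO, all 6 B cell markers were higher (1.504), and 7 of 8 macrophage (-0.308) and 7 of 8 epithelial ones (-0.301) lower. T cell markers in KO divided into 4 higher and 4 lower. The part of these lists in the members' values was not tested. The comparisons share groups, so that their likeness is not independent. The interaction of genotype and diet called 0% of all genes, with 1.43% at an unadjusted p under 0.05 and no member among them. Its member differences were -0.37 (Cd74) to 0.13 (Ctss), with 95% intervals that all include 0.

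**Figure D2:**
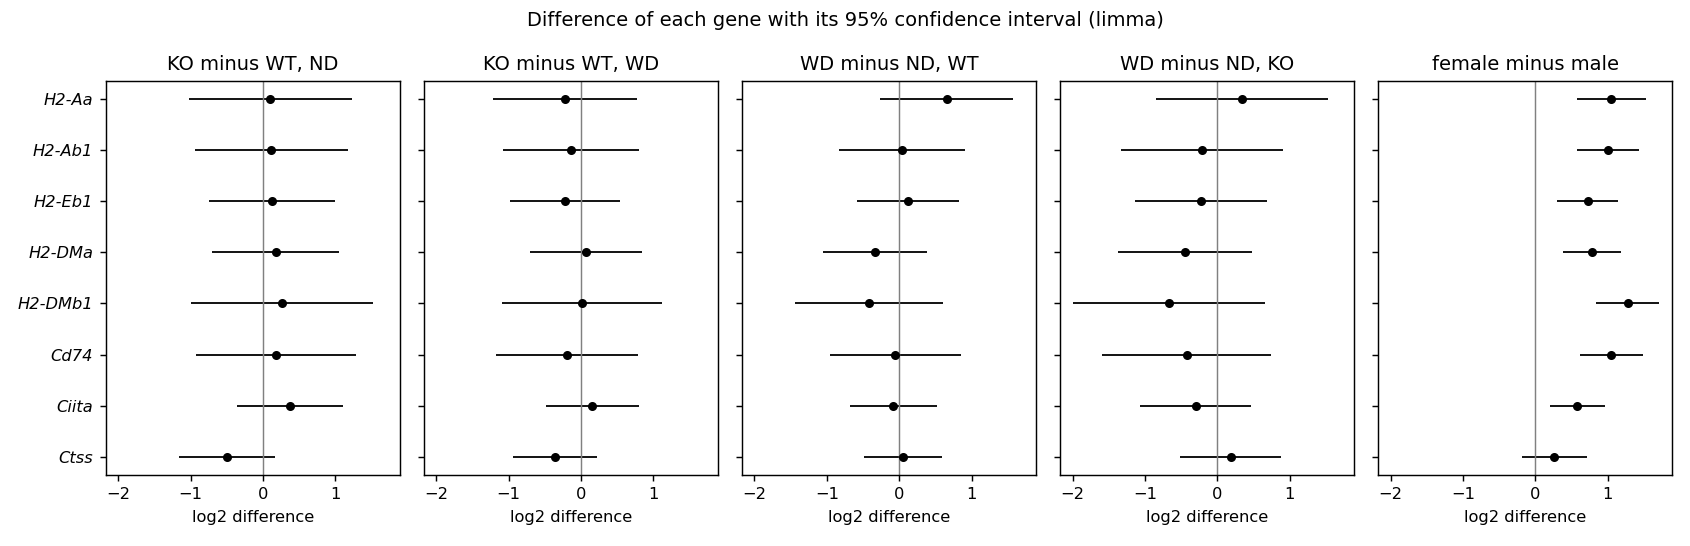
Log2 difference of each gene (points) with its 95% confidence interval (bars) from limma in the 4 comparisons of 2 groups and between the sexes. All intervals of the genotype and diet comparisons include 0, while between the sexes only that of Ctss does.

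No member passed alone, but in sums over all transcripts, the level of H2-Aa relative to 4 of the other 7 members separated the diets. The ratio of 2 genes within a library does not depend on scaling, and it shows unequal change, not which gene changed. These ratios were chosen after the values had been seen and carry no test. The H2-Aa to Cd74 ratio was 0.273, 0.44, 0.331 and 0.349 in WT-ND and 0.32 and 0.331 in KO-ND. It was 0.595, 0.483, 0.568 and 0.61 in WT-WD and 0.653, 0.501 and 0.512 in KO-WD. Every WD-fed library thus lay above every ND-fed one. The same held for the ratio of H2-Aa to H2-Ab1, its partner in I-A, which was 0.477 to 0.663 on the ND and 0.757 to 0.934 on the WD, and for its ratios to H2-DMa and H2-DMb1. These were the only 4 of 28 pairs of members whose ratios did not overlap between the diets. Of all 19041 other genes tested, 0.11% (21 genes) had a ratio to Cd74 that was above in every WD-fed library, and H2-Aa was the only member among them. No such share was taken for ratios to the other members or for gene pairs in general. The count of 4 pairs therefore has no background beside it.

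The transcripts behind these sums differ. The most abundant transcript makes up 83% of the H2-Aa sum, whereas in H2-Ab1 the main coding transcript makes up 41.1% and a transcript annotated as a retained intron 34.6%. The share of retained-intron transcripts in H2-Ab1 was 50.5% to 74.0% on the ND and 32.2% to 54.3% on the WD, with overlap. With protein-coding transcripts alone, the H2-Ab1 to Cd74 ratio was 0.214, 0.306, 0.158 and 0.253 in WT-ND and 0.245 and 0.273 in KO-ND, and 0.356, 0.381, 0.331 and 0.361 in WT-WD and 0.345, 0.399 and 0.333 in KO-WD. Both I-A chain genes were then above in every WD-fed library relative to Cd74, which 0.0835% of 13168 genes with such transcripts were. The ratios of H2-Aa to H2-Ab1 and to H2-DMb1 (7.64 to 14.1 on the ND and 12.9 to 20.0 on the WD) then overlapped between the diets, while those to H2-DMa and Cd74 did not. In all, 5 of the 28 pairs did not overlap, again with no share over gene pairs in general beside that count. Among them were H2-Aa to H2-Eb1, at most 5.126 on the ND and at least 5.13 on the WD, and H2-Ab1 to H2-DMa (3.15 to 5.24 and 5.31 to 9.86). With the most abundant transcript of H2-Aa and of Cd74 alone, the diets overlapped (0.355 to 0.538 on the ND and 0.511 to 0.786 on the WD). Whether these ratios follow the diet or the different handling of the ND-fed and WD-fed columns cannot be told apart.

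**Figure D3:**
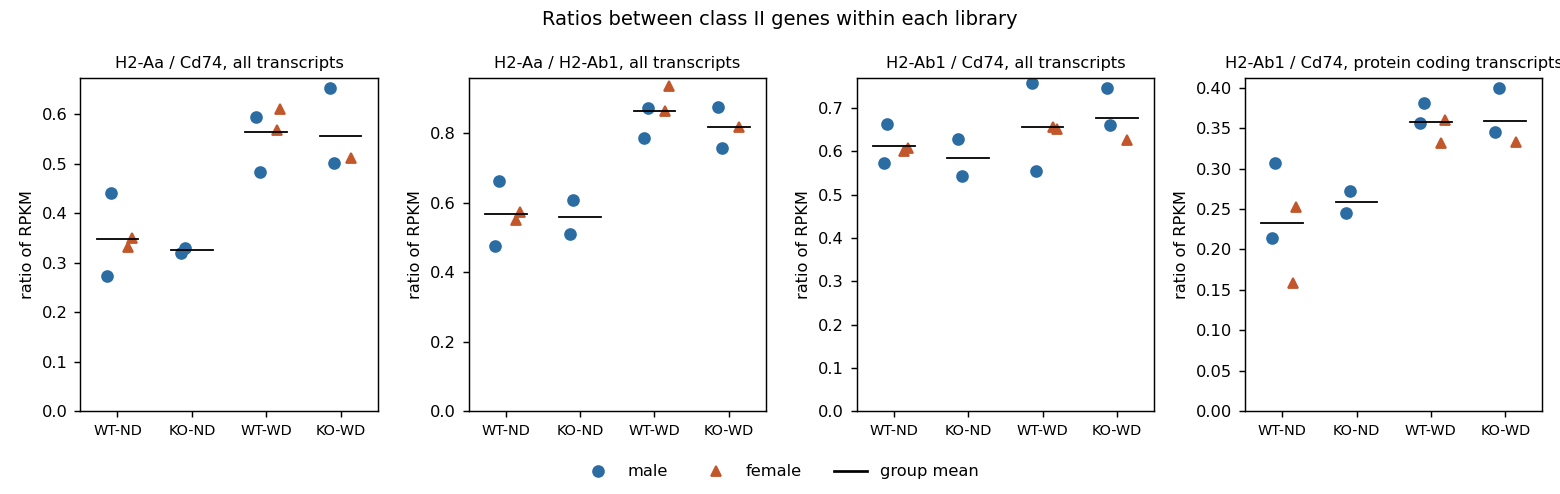
Ratios of RPKM within each library (vertical axes, from 0) by group, with circles for males, triangles for females and lines at group means. The H2-Aa to Cd74 ratio is at most 0.44 on the ND and at least 0.483 on the WD, and the H2-Ab1 to Cd74 ratio separates the diets with protein-coding transcripts alone.

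Between the labelled sexes, the member median was 0.89. With the group in the model, all 8 had a higher mean in females, 7 of them with an unadjusted p under 0.05, which 9.98% of all genes had in this direction. None met the rule for a call, which 0.042% of all genes met. The log2 differences between the sexes are within groups, whereas the means beside them pool all libraries, with the KO-ND males among the males. The ratio of the means is therefore not the fold change. H2-DMb1 averaged 62.3 in the 5 female and 31.7 in the 8 male libraries, with a log2 difference within groups of 1.27 ± 0.20 (fold 2.42, 95% interval 1.79 to 3.27). Its limma adjusted p of 0.0262 was the only one of a member under 0.05, a level that 0.457% of all genes reached. Its exact permutation p within the groups was 0.00926, the smallest that 108 arrangements allow.

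Cd74 averaged 1287 in females and 722 in males (1.05 ± 0.20, adjusted p = 0.0506). H2-Aa averaged 601 and 312 (1.05 ± 0.22, adjusted p = 0.0581) and H2-Ab1 807 and 455 (1.00 ± 0.20, adjusted p = 0.051). H2-DMa (0.79 ± 0.18), H2-Eb1 (0.72 ± 0.19) and the transactivator Ciita (0.58 ± 0.17) had adjusted p of 0.0656, 0.0856 and 0.114. For Ctss, the means were 74.6 and 58.0 (0.26 ± 0.21, interval -0.19 to 0.71, adjusted p = 0.525). The median over all genes was -0.01.

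In each of the 3 groups that hold both sexes, every female library lay above every male one for 5 members, H2-Aa, H2-Ab1, H2-DMa, H2-DMb1 and Cd74, as it did for 3.85% of all genes. Over all libraries the sexes overlapped for every member. KO-ND male 2 had Cd74 at 1286, within the range of the female libraries, and Ciita at 9.57, above every female library (5.12 to 8.60). In WT mice alone, the sex difference of Cd74 was 1.17 ± 0.31 on the ND and 0.69 ± 0.31 on the WD, and that of H2-DMb1 was 1.20 ± 0.34 and 1.12 ± 0.34. The difference between the diets in this sex difference had no member with an unadjusted p under 0.05, against 4.42% of all genes, and was 0.48 ± 0.43 for Cd74 (adjusted p = 0.985). When each of the 13 libraries was left out in turn, the adjusted p of H2-DMb1 was 0.00697 to 0.126 and exceeded 0.05 in 6 fits. It was highest without the KO-WD female library, itself a mean, and over 0.05 also without WT-ND male 2, WT-ND female 2, WT-WD male 1, WT-WD male 2 or KO-WD male 2. Without WT-WD female 1 it was lowest, a call. With all 16 columns it was 0.102 and with the most abundant transcript alone 0.0737. In a fit of the 8 WT libraries alone, added after the data were seen, the difference was 1.19 with an adjusted p of 0.186. With the replicate number as a block, it was 1.01 with an adjusted p of 0.205, and the labels do not say whether the numbers pair the mice.

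Other genes of antigen presentation were read from lists. Of 11 class I presentation genes, 9 had a positive female minus male difference and 2, Psmb10 and Erap1, a negative one, all 11 with an unadjusted p under 0.05. H2-D1, a class I heavy chain, had a log2 difference of 0.85 ± 0.15 (limma adjusted p = 0.0404), and Nlrc5, the class I transactivator, 1.26 ± 0.30 (adjusted p = 0.0677). The immunoproteasome subunits Psmb8 and Psmb9 had 0.92 ± 0.20 and 0.92 ± 0.19. The median of the list was 0.67, and none of its genes was called. Of 10 tested class II accessory genes, all had a positive difference and 4 an unadjusted p under 0.05. H2-DMb2, the near copy of H2-DMb1, had 1.11 ± 0.26 (adjusted p = 0.0668), H2-Ob, a chain of the H2-DO modulator of peptide loading, 0.96 ± 0.44, and Lgmn, an endosomal protease, 0.56 ± 0.17. Ifng and H2-Ea-ps were not analysed here.

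Of 6 interferon-gamma pathway genes, all had a positive difference and 2 an unadjusted p under 0.05, the feedback inhibitor Socs1 at 0.94 ± 0.23 (adjusted p = 0.0744) and the transcription factor Irf1 at 0.62 ± 0.18 (adjusted p = 0.103). Of 11 interferon-gamma-induced genes, all were positive and 4 had an unadjusted p under 0.05, among them Ido1 at 0.95 ± 0.36 and the guanosine triphosphatase Igtp at 0.84 ± 0.31. The 7 factors of the X and Y boxes had a median of -0.05, and Nfyb, a subunit of the Y box factor, had -0.51 ± 0.20 (adjusted p = 0.192). The 4 tested co-stimulation genes were all positive, with none at an unadjusted p under 0.05.

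Between diets and genotypes these lists had no call either. In WT mice, Rfxap, a subunit of the X box factor RFX, was at -0.93 ± 0.19 on the WD against the ND (adjusted p = 0.0809), and the co-stimulatory ligand Cd86 at 0.94 ± 0.38 (adjusted p = 0.271). Of the class I genes, 7 of 11 had a negative difference on the WD in WT (median -0.53) and 8 of 11 in KO (median -0.55), where Tap1 and Tap2, the peptide transporter, had -1.10 ± 0.41 and -0.74 ± 0.27 (adjusted p = 0.873 and 0.87). In the interaction, all 11 interferon-gamma-induced genes were negative (median -0.62), with none at an unadjusted p under 0.05. In KO against WT on the ND, 10 of them were positive (median 0.55), Igtp among them at 1.27 ± 0.54 (adjusted p = 0.895). Both comparisons share the 2 KO-ND males, with summed levels of this list of 48.8 and 88.7, against 28.2 to 67.6 in WT-ND. Of all 19042 genes, 9621 were negative in the interaction and 9768 positive in KO against WT on the ND.

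Marker lists of the cells that carry class II, or lie beside them, differed in how their values fell by sex. Of 8 T cell markers, 7 had a positive female minus male difference with an unadjusted p under 0.05, with a median of 1.06. Cd8a (1.21 ± 0.24), Cd3d (1.30 ± 0.28) and Cd3g (1.15 ± 0.30) had adjusted p of 0.0539 to 0.0805, while Cd4 had -0.15 ± 0.26. The summed T cell level was 22.1 to 43.3 in females and 7.54 to 28.9 in males, and the highest male value was that of KO-ND male 2. The 6 tested B cell markers were all positive (median 0.83, 2 at an unadjusted p under 0.05), with a summed level of 14.2 to 80.6 in females and 6.43 to 54.2 in males. The highest, WT-ND female 1, did not have the highest member levels.

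The macrophage list had a median of -0.06, with 1 of 8 positive at an unadjusted p under 0.05. Its sums were 106 to 224 in females and 121 to 239 in males. The dendritic cell list also had a median of -0.06, with 1 of 6 tested positive at an unadjusted p under 0.05. Its sums were 9.04 to 16.2 in females and 6.26 to 20.1 in males. Epithelial markers had a median of 0.63, with 0 of 8 at an unadjusted p under 0.05 and sums of 3837 to 9396 in females and 1447 to 7232 in males, which places high levels of epithelial genes in every library. Smooth muscle markers had a median of -0.23, and plasma cell markers -0.61, with 3 of 6 negative at an unadjusted p under 0.05. No marker was under an RPKM of 0.05 throughout a sex or a group. The part of T cell, B cell or epithelial content in the sex difference of the members was not tested.

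**Figure D4:**
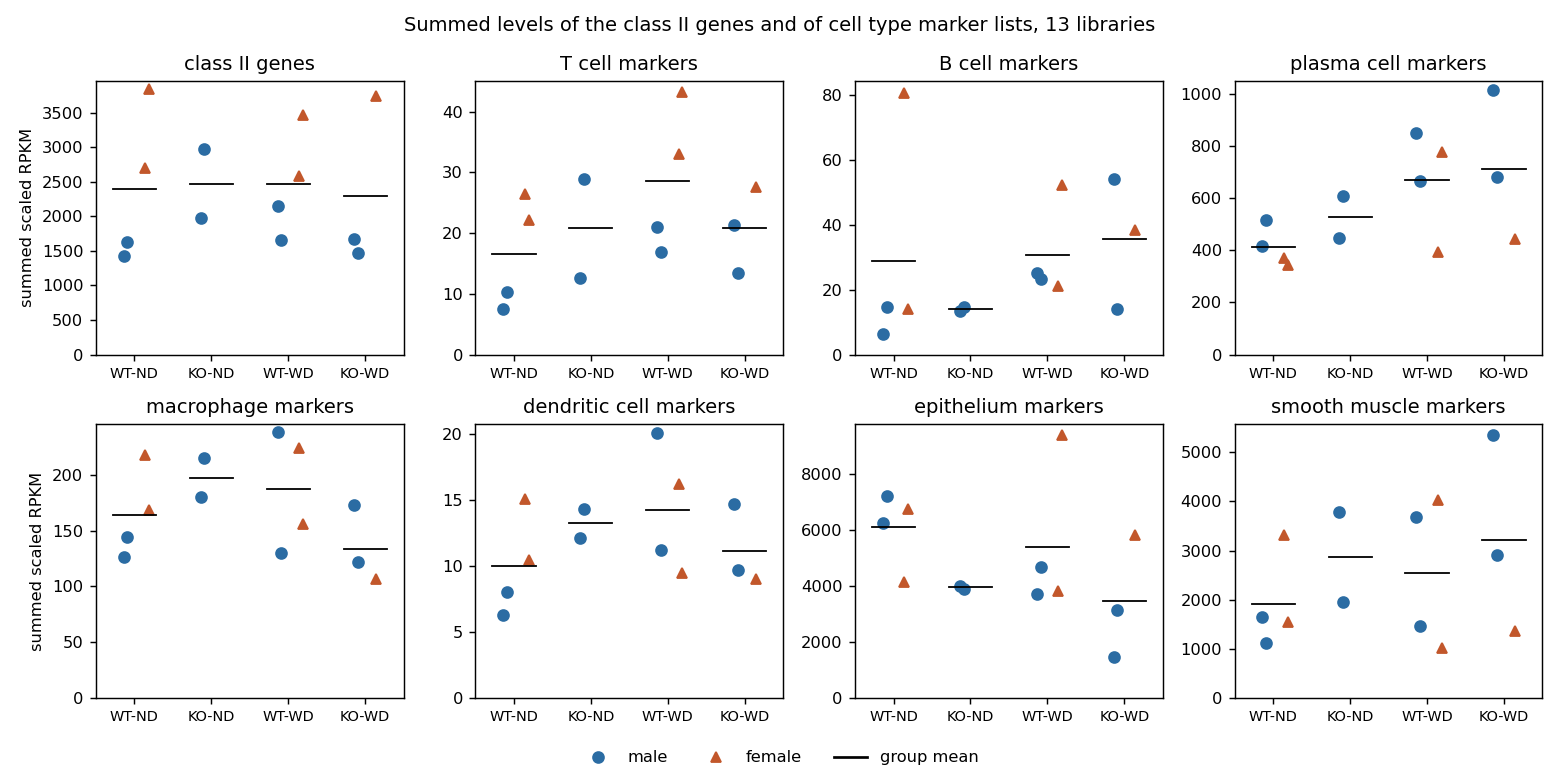
Summed scaled RPKM (vertical axes, from 0) of the 8 class II genes and of 7 marker lists in the 13 libraries by group, with circles for males, triangles for females and lines at group means. The T cell sum is 22.1 to 43.3 in females, and the macrophage and dendritic cell sums overlap widely between the sexes.

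Genes whose pattern was most like that of the members were ranked by Pearson's r with the mean of the members' standardised log2 values over the 13 libraries, among genes with a mean RPKM of at least 1. This is a description with no test. Cd7, a surface protein of T and NK cells, led with r = 0.922, from 2.56 to 14.1 scaled RPKM. It was followed by the interferon-induced Oasl2 (0.916), Gm20632 (0.900), the chemokine gene Ccl5 (0.894), Gm7030 (0.887), Gm8539 (0.886), the interferon-induced Ifit1 (0.881), Clec2d (0.878), Ubd (0.876), which encodes the ubiquitin-like protein FAT10, and Itgae (0.875), which encodes the CD103 integrin of intraepithelial lymphocytes. Ifit1 had a female minus male difference of 1.25 ± 0.18 (limma adjusted p = 0.0231) and Gm8539 of 0.59 ± 0.11 (adjusted p = 0.0479). Of the lists, the T cell markers had a median r of 0.69, from 0.07 for Cd4 to 0.85 for Cd3e (Cd3g 0.83, Cd8a 0.82). The class I genes had a median of 0.67, with Psmb10 and Erap1 at -0.34. Medians were 0.39 for the epithelial and 0.31 for the B cell markers. Macrophage (-0.08, from -0.25 to 0.61 for Mertk) and dendritic cell markers (-0.03, from 3 genes at -0.16 to 0.47) had medians near that of all genes, 0.00. With group means subtracted, r was 0.904 to 0.952 for the same 10 genes.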

How the data were processed

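Ileal RNA was read by the authors on an Ion Proton sequencer, aligned in Partek Flow to GRCm38 (mm10) with STAR 2.5.3a, and quantified against Ensembl release 91. The authors deposited RPKM for each transcript, that is, reads normalized by transcript length and library total; counts and the authors' own comparisons were not used. Transcripts (59258) were summed per gene, and 98.2% were matched by name to GENCODE M21, whose coordinates and transcript types were used. In 86.9% to 88.2% of the values checked, RPKM times length was a whole number of reads within 0.02 reads, and 1 read on 1 kb is an RPKM of 0.0692 to 0.139, which sets the precision at low levels.

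A gene was tested if 2 or more of the 13 libraries had an RPKM of 1 or more. TMM-type scaling left out 30% of the log ratios and 5% of the levels at each end. After a pseudocount of 0.5, log2 values entered limma 3.58.1 (R 4.3.3), with all groups in a single model and the variance trend on. The sex comparison added sex to the groups. The rule for a call was a Benjamini-Hochberg adjusted p under 0.01 with a fold change of at least 2. Single members also had two-sided exact permutation tests, for sex within groups. Replicates are separate mice per the labels. The fit was tested on simulated data. Tables and figures were made with Python 3.11.15, pandas 2.3.3 and matplotlib 3.10.9.

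The members and lists were chosen with earlier results of these data known. One list gene is not reported here. Named are the 8 members, list genes with an adjusted p under 0.05 or up to 4 of a list with the largest differences, and the 10 genes most like the members. Xist, Ddx3y and further genes named beside a small count or a marker list were picked with their values in view. The alternatives were other scalings (RLE, upper quartile, none), pseudocounts and filters, sex as a covariate, the replicate number as a block, the 2 groups alone, males only, each library left out, other treatments of the related columns, leaving out values of more than 6 digits, the most abundant transcript, no trend and another threshold. The transcript ratios and the fit of the WT groups alone were added after seeing the data.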

Additional observations from a re-analysis of the deposited data

How the results depend on the processing

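No member was called for genotype, diet or their interaction under any alternative run. Between the sexes, 0 members were called in the main analysis. Only H2-DMb1 was called without WT-WD female 1, with the KO-WD females as 2 libraries and at an adjusted p under 0.05 with no minimum fold. The 2 KO-WD female libraries of that setting were female 1 and a reconstructed one, 2 times female 2 minus female 1. Leaving out each library in turn gave 0 to 1 members called. The member median kept its sign between the sexes under all alternatives (0.69 to 1.01). With males only, it was 0.712 for KO against WT on the ND and -0.870 for the interaction. With values as deposited, it was -0.464 for WD against ND in WT and -0.655 in KO. The cause was not tested.

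Counts of all genes called changed more. Main counts were 0 and 2 for KO against WT on the ND and WD, 1 and 0 for WD against ND in WT and KO, and 8 between the sexes. In that order of comparisons, an adjusted p under 0.05 with no minimum fold gave 1, 5, 22, 1 and 87, and all 16 columns as labelled gave 1, 6, 33, 16 and 0. Values as deposited gave 4 for KO against WT on the WD, 539 for WD against ND in WT and 13 between the sexes. A mean RPKM of at least 5 gave 1, 1 and 2 for KO against WT on the WD, the diets in KO and the sexes, and KO-WD females as 2 libraries gave 1, 1 and 24 for KO against WT on the ND, the diets in KO and the sexes. KO against WT on the ND had 1 with a pseudocount of 0.1 and with no trend. KO against WT on the WD had 1 in the 2 groups alone and with the most abundant transcript, and 0 in males only and without transcripts of more than 6 digits. For the diets in WT, sex as a covariate gave 4, the most abundant transcript 10 and males only 0, and upper quartile scaling gave 1 for the diets in KO. The WT groups alone, added after seeing the data, gave 5 between the sexes. Leaving out each library in turn gave 1 to 2 for KO against WT on the WD, 1 to 3 for the diets in WT and 6 to 13 between the sexes.

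With the replicate number as a block, 3 genes were called between the diets in WT and 5 between the sexes, and no member. Same-numbered libraries of different groups correlated at r = -0.202 to 0.568, with 7 of 16 pairs over 0.1. Other-numbered libraries of the same sex correlated at -0.287 to 0.634, with 6 of 16 over 0.1. The smooth muscle sum was higher in replicate 1 than in replicate 2 wherever a group held 2 libraries of a sex. Whether the numbers share a pairing or a batch cannot be told from these values. Of the 10 genes most like the members, 4 remained with Spearman's rho, 5 with group means subtracted and 5 to 10 when each library was left out, fewest without WT-ND male 1. The number of libraries per group, the single sex in KO-ND and a depth of 184 to 543 reads for Ciita set the precision.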
